A study of Mus musculus with 9 samples.

Results

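The 9 receptor genes here were described across inhibitory neurons of the mouse central amygdala. They were chosen by name, as the receptors for vasoactive intestinal peptide (VIP; Vipr1 and Vipr2), for its relative PACAP (Adcyap1r1), for neuropeptide Y (NPY; Npy1r, Npy2r and Npy5r), for gastrin-releasing peptide of the bombesin family (Grpr), for neuropeptides B and W (Npbwr1) and for galanin (Galr1). The 9 genes were found among 22601 genes in the deposited table. The cells came from 9 samples of 1 group, wild-type (WT) B6 mice with no treatment or age given, whose central amygdala was dissected from living brain slices and dissociated before cells were pooled. Of 829 cells, 810 were classed as inhibitory neurons, since they held at least 1 count per 10000 gene counts of Gad1, Gad2 or Slc32a1, which make or load the transmitter GABA, and less than that of the glutamate transporter genes Slc17a6 and Slc17a7. Each sample gave 82 to 95 of these neurons. A cell was called positive for any gene at 1 or more counts per 10000 of its gene counts, spike-in rows excluded. With this rule 324 of the 810 neurons were positive for at least 1 of the 9 receptors, 58 for 2 or more, and 486 for none.

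All 9 genes encode G protein-coupled receptors for peptides that neurons release. The VIP and PACAP receptors act mainly through stimulatory G proteins that raise cyclic AMP, the NPY, galanin and neuropeptide B/W receptors mainly through inhibitory G proteins, and the gastrin-releasing peptide receptor mainly through Gq and phospholipase C. In the central amygdala, a mostly inhibitory nucleus studied for fear, feeding and pain, PACAP and NPY signalling are known for opposing effects on anxiety-like behaviour.

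The neurons were compared on either side of 5 class genes: Prkcd, a protein kinase C; Sst, the peptide somatostatin; Nts, the peptide neurotensin; and Isl1 and Nr2f2, transcription factors. Of the 810 neurons 343 were positive for Prkcd, 148 for Sst, 115 for Nts, 76 for Isl1 and 116 for Nr2f2. The classes overlapped: 65 of the 115 Nts-positive cells were Sst-positive and 28 were Prkcd-positive. The median neuron had 126576 gene counts and 4528 detected genes. Median counts were 140732 in Nts-positive and 124219 in Nts-negative cells, 169576 and 123695 on the 2 sides of Isl1, and 110426 and 129046 on those of Nr2f2. Of 376 distinct cell barcodes 368 occurred in more than 1 sample. Sample 5 stood apart: 5 oligodendrocyte markers (Mbp, Mobp, Mog, Mag and Cnp) summed to 1634 CPM (counts scaled to a common library total) in its inhibitory neurons, against 65.4 to 111 in the other 8 samples. In sample 5, 1 cell held 49.3% of those counts, and that cell also had at least 1 count of Npy1r and of Npy2r. The lists of 4 excitatory neuron, 4 astrocyte, 4 microglial, 3 endothelial and 2 oligodendrocyte precursor markers had medians over samples of at most 1.18 CPM on the 10 sides of the 5 class genes, with a highest sample of 33.2. The 4 markers of intercalated cells (Foxp2, Tshz1, Erbb4 and Drd1a), inhibitory neurons that border the nucleus, had a median of 5.43 CPM in Prkcd-positive against 53.7 in Prkcd-negative cells, and 2.55 in Nr2f2-positive against 36.6 in Nr2f2-negative cells. The part of these markers and of depth in the receptor results was not tested, and values without sample 5 stand beside the results it touches.

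Promoter sequences are shown for 3 members that the results around Nts-positive cells turn on, Vipr2, Adcyap1r1 and Npy2r. Each is the 250 bases before the RefSeq start of the gene in GRCm38.p6, 5′ to 3′ on the gene's strand, with capitals for the GC box (GGGCGG, either strand), the letters bound by Sp-family factors.
Vipr2, chr12:116077476-116077725, strand +: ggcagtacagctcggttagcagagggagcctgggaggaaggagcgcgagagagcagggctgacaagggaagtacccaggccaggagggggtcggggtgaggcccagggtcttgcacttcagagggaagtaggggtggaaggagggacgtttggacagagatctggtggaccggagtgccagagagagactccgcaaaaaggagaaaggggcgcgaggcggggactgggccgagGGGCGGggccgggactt
Adcyap1r1, chr6:55451728-55451977, strand +: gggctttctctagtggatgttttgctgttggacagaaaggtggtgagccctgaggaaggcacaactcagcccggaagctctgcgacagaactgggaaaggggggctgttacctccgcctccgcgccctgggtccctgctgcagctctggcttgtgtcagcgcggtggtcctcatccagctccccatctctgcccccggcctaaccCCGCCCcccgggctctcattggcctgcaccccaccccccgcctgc
Npy2r, chr3:82548086-82548335, strand −: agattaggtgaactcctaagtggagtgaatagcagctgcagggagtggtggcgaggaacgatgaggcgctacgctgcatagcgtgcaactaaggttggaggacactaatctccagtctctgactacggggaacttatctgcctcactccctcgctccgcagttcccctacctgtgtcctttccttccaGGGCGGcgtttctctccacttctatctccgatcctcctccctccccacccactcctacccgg
Promoter windows were matched for 7 of the 9 members; Npbwr1 and Galr1 were not matched. The GC box was found in 4 of the 7 (Vipr1, Vipr2, Adcyap1r1 and Npy2r), against 32.7% of all 32851 promoter windows of the same length. The cyclic AMP response element (TGACGTCA), the nuclear receptor half-site that Nr2f2 and its relatives bind (AGGTCA) and the TATA box (TATAAA), each searched on both strands, were in 0 of the 7 windows and in 1.55%, 14.0% and 12.4% of all windows. Npy1r and Npy5r lie on chromosome 8 on opposite strands, with starts 9328 bases apart.

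Adcyap1r1, the PACAP receptor, was detected in more neurons than the other members. It was positive in 17.4% to 29.0% of the neurons of a sample, with a median of 23.8% and a mean of 23.3% ± 3.62 (SD, n = 9 samples). Npy2r, a receptor that often sits on NPY-releasing terminals, followed at 10.3% ± 4.31, from 5.56% to 17.4%. The other 7 were rare: Npy1r reached 3.55% ± 1.83, Npbwr1 3.16% ± 1.72, Vipr2 2.80% ± 2.27, Vipr1 1.62% ± 0.637, Grpr 1.48% ± 0.766, Npy5r 0.726% ± 0.766 and Galr1 0.714% ± 0.927. In this order Adcyap1r1 exceeded Npy2r in 9 of 9 samples and Npy2r exceeded Npy1r in 9 of 9, each with an exact two-sided sign-flip p of 0.00391, the smallest that 9 samples allow. No later neighbours in the order differed beyond their spread (exact p from 0.0625 for Grpr against Npy5r to 0.969 for Npy5r against Galr1; 8 neighbouring pairs compared, unadjusted). These shares order detection, not transcript numbers, because counts were not scaled to gene length. At a threshold of 1 count or more, the shares rose to 44.6% ± 6.75 for Adcyap1r1 and 20.1% ± 3.78 for Npy2r, and ran from 2.04% ± 2.23 for Galr1 to 9.62% ± 3.43 for Npy1r in the rest. Cells that passed the threshold passed it narrowly: the median level among positive cells lay between 1.12 (Npy5r) and 2.14 (Npy2r) counts per 10000, and the highest was 8.70 for Adcyap1r1. A further 68 neurons for Adcyap1r1 and 9 for Vipr2 lay just below the threshold, at 0.5 or more per 10000.

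**Figure D1:**
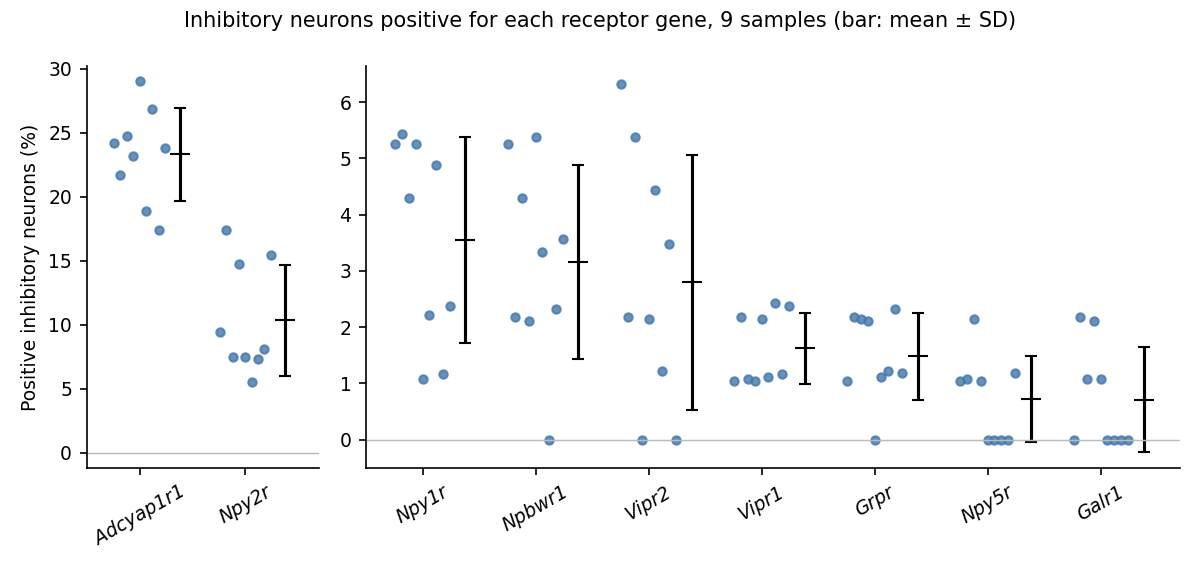
Share of inhibitory neurons positive for each receptor gene (y axis, percent; 2 panels with their own scales) in the 9 samples (points), with mean ± SD. Adcyap1r1 lies between 17.4% and 29.0% and above Npy2r in each of the 9 samples, while the other 7 genes stay at or below 6.32%.

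Level was tested with edgeR on counts summed per sample and class, with the sample as a block and p-values adjusted over all genes tested. Between 6 and 8 of the 9 members had enough counts to be tested: 7 for Prkcd, Sst and Nts, 8 for Isl1 and 6 for Nr2f2. In Nts-positive cells 2 members were higher and 1 lower, against 1.02% and 1.26% of 11251 genes. In Sst-positive cells 1 was higher and 1 lower, against 2.26% and 2.26% of 11355 genes. In Prkcd-positive cells 0 were higher and 2 lower, against 7.6% and 9.74% of 11487 genes. In Isl1-positive cells 0 were higher and 1 lower, against 1.7% and 3.15% of 11169 genes, and in Nr2f2-positive cells 0 were higher and 1 lower, against 0.409% and 1.28% of 11008 genes. By DESeq2, 4 members passed for Prkcd, 4 for Sst, 5 for Nts, 3 for Isl1 and 3 for Nr2f2. DESeq2 also called more of all genes than edgeR: for Prkcd 1094 rose and 1641 fell, of 11487. For Sst these were 466 and 884 of 11355, and for Nts 341 and 820 of 11251. For Isl1 they were 497 and 1492 of 11169, and for Nr2f2 174 and 881 of 11008. The median log2 difference of the tested members lay below that of all genes in each split, from -0.20 against -0.17 for Sst to -1.40 against -0.24 for Nr2f2.

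The share of positive cells was tested by exact two-sided sign flips of the per-sample difference. After adjustment over the 9899 genes positive in at least 2% of neurons, 0 of the 5 members that met this floor passed in any split, where 8.16% of genes passed for Prkcd and 0% for each of Sst, Nts, Isl1 and Nr2f2. With 9 samples that adjustment needs 774 genes at the smallest p before any can pass, so it says nothing of single genes, and exact p-values are given below unadjusted, for 45 comparisons in all. Under 0.05 unadjusted were 3 of 9 members for Prkcd (24.5% of genes), 3 for Sst (15.1%), 4 for Nts (13.3%), 1 for Isl1 (18.7%) and 3 for Nr2f2 (10.6%). The gene shares cover only genes at the 2% floor, which 5 of the 9 members met, so counts and shares are over unlike sets. No excess is read from the Prkcd count. The members counted for Isl1 (Grpr) and Nr2f2 (Vipr1, Vipr2 and Npy1r) had 0 positive cells in a small class, so that no sample could differ in the other direction, and nothing is read from their share p-values.

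**Figure D2:**
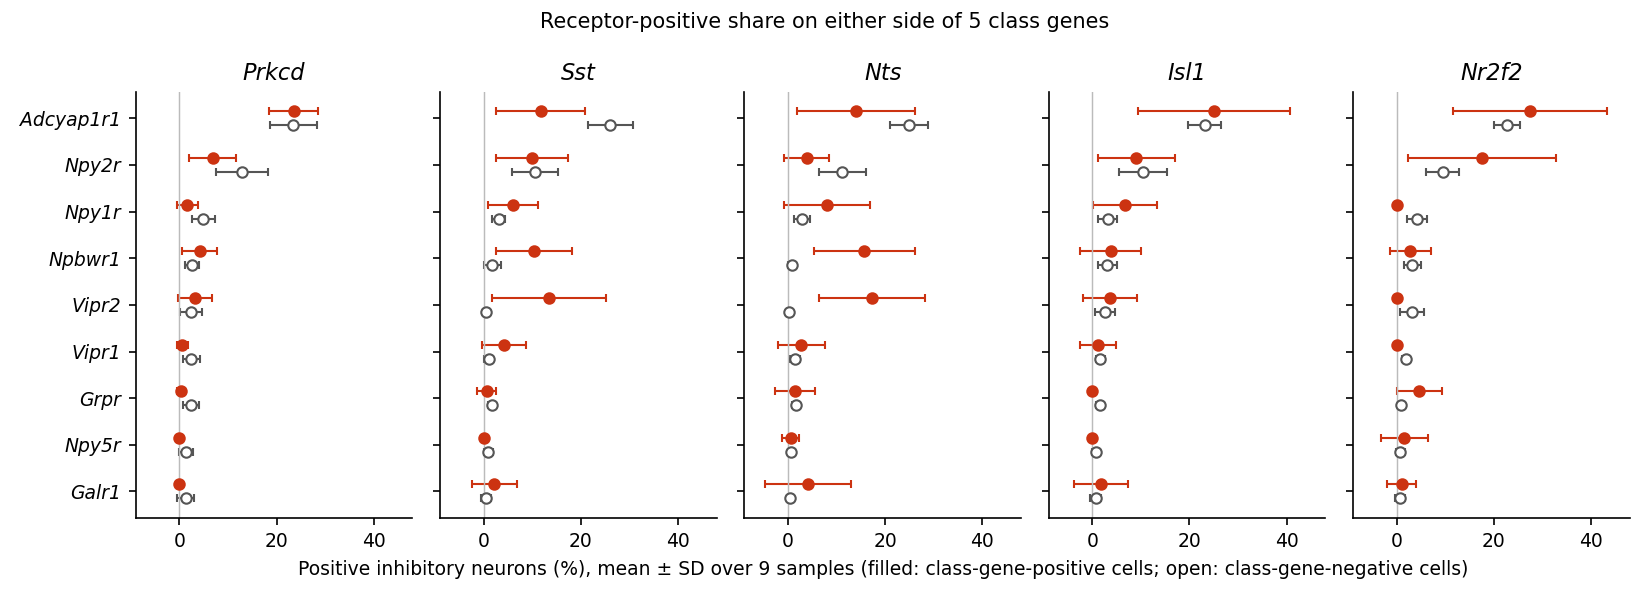
Share of positive neurons (x axis, percent) for the 9 receptor genes on either side of the 5 class genes, as mean ± SD over 9 samples; filled points are class-gene-positive cells and open points class-gene-negative cells. Vipr2 and Npbwr1 lie higher in the filled points of the Nts and Sst panels, and Adcyap1r1 lower in both.

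Vipr2, a VIP and PACAP receptor, was almost restricted to Nts-positive neurons. It was positive in 22 of 115 Nts-positive cells and in 1 of 695 Nts-negative cells, and it had at least 1 count in 43 and 6. Per sample its level in Nts-positive cells was 2.15 CPM at the lowest, 42.1 at the median and 102 at the highest; in Nts-negative cells these were 0, 0.0875 and 1.49. The ranges did not overlap, and Vipr2 was higher in 9 of 9 samples. The fitted log2 difference was 7.36 ± 1.10 (SE, adjusted p = 0.00262, edgeR). Without sample 5 it was 7.94 (adjusted p = 0.00393), and the highest adjusted p without any 1 sample was 0.0108. Vipr2 entered this test through its counts in Nts-positive cells, since 4 of the 9 Nts-negative samples were at 0. These p-values therefore describe the difference and are not taken as support for it. With cells of at least 50000 counts thinned to that depth, 35.7% of 112 Nts-positive and 0.740% of 676 Nts-negative cells kept a count. The 22 neurons below that depth were left out. The share of positive cells was 17.4% ± 10.9 against 0.146% ± 0.439 (exact p = 0.0156). With 1 positive Nts-negative cell in all, at most 1 sample could differ in the other direction. This p-value is likewise not taken as support. Within animal numbers 1, 2 and 3 the pooled share in Nts-positive cells was 17.6%, 20.6% and 19.1%, and in Nts-negative cells 0.420%, 0% and 0%. Within the 3 date fields of the cell names it was 26.1%, 15.8% and 12.9% against 0.427%, 0% and 0%.

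Vipr2 was also higher in Sst-positive cells, where 20 of 148 were positive against 3 of 662. Its level there was 1.08 CPM at the lowest, 30.7 at the median and 73.5 at the highest sample, against 0, 0.674 and 9.22 in Sst-negative cells, and the ranges overlapped. The log2 difference was 4.32 ± 0.91 (adjusted p = 0.0148, edgeR; 3.86 and 0.0179 without sample 5), and it was lost with equal numbers of cells drawn from each class (4.84, adjusted p = 0.0611), without Mbp-positive cells (4.11, 0.126) and with Sst called at 1 count (4.91, 0.102). With a median of 0.674 CPM and 3 positive cells on the Sst-negative side, Vipr2 entered this test mainly through the Sst-positive cells. The p-values of the Sst difference, in level and in share, are therefore not taken as support. All 20 Vipr2-positive Sst cells were Nts-positive. Among the 83 Sst-positive cells without Nts, 0 were positive, which allows a share of up to 3.61%. Among the 50 Nts-positive cells without Sst 2 were positive (4%), against 20 of the 65 with both (30.8%). In the share of positive cells the Sst difference was 13.0 percentage points (exact p = 0.0156), and with Nts-positive cells left out, an alternative chosen after seeing the data, it was -0.28 (exact p = 1).

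Vipr2 was at 0 counts in all 116 Nr2f2-positive cells, where 7.02 cells with a count would stand at an equal share. Taking 3 counts over the whole class as the detection limit, the bound on its pooled level was 47.2-fold lower than in Nr2f2-negative cells. This bound treats counts as independent, while the 977 counts in Nr2f2-negative cells lay in 49 cells. The size of the difference is therefore not read from it. The low-count filter left this comparison out of the edgeR test, and 0 cells were positive where 3.29 would be at an equal share. Only 4 of the 116 Nr2f2-positive cells were Nts-positive.

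Npbwr1, the receptor for neuropeptides B and W, followed Vipr2 into Nts-positive cells. It was positive in 20 of 115 Nts-positive and 6 of 695 Nts-negative cells. Its level was 0 CPM at the lowest, 45.6 at the median and 55.6 at the highest sample in Nts-positive cells, against 0.0992, 2.19 and 7.62. It was higher in 8 of 9 samples; in the remaining sample it had no count in 8 Nts-positive cells, so the ranges overlapped. The log2 difference was 4.45 ± 0.98 (adjusted p = 0.0279, edgeR). This call was fragile: it held without 2 of the 9 samples taken in turn, and the adjusted p was 0.068 without sample 5, 0.0754 without sample 8, 0.143 with equal cell numbers, 0.329 without Mbp-positive cells and 0.801 without Sst-positive cells (log2 1.69). The share of positive cells was 15.7% ± 10.4 against 0.851% ± 0.863 (exact p = 0.0156). Within animal numbers the share was 14.7%, 23.5% and 14.9% in Nts-positive cells against 0.840%, 0.422% and 1.36%. In Sst-positive cells Npbwr1 had a log2 difference of 2.77 ± 0.90 (adjusted p = 0.113, edgeR) and 14 of 148 positive cells against 12 of 662 (exact p = 0.0234 for the share), and with Nts-positive cells left out the share difference was -0.94 percentage points (exact p = 0.25).

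**Figure D3:**
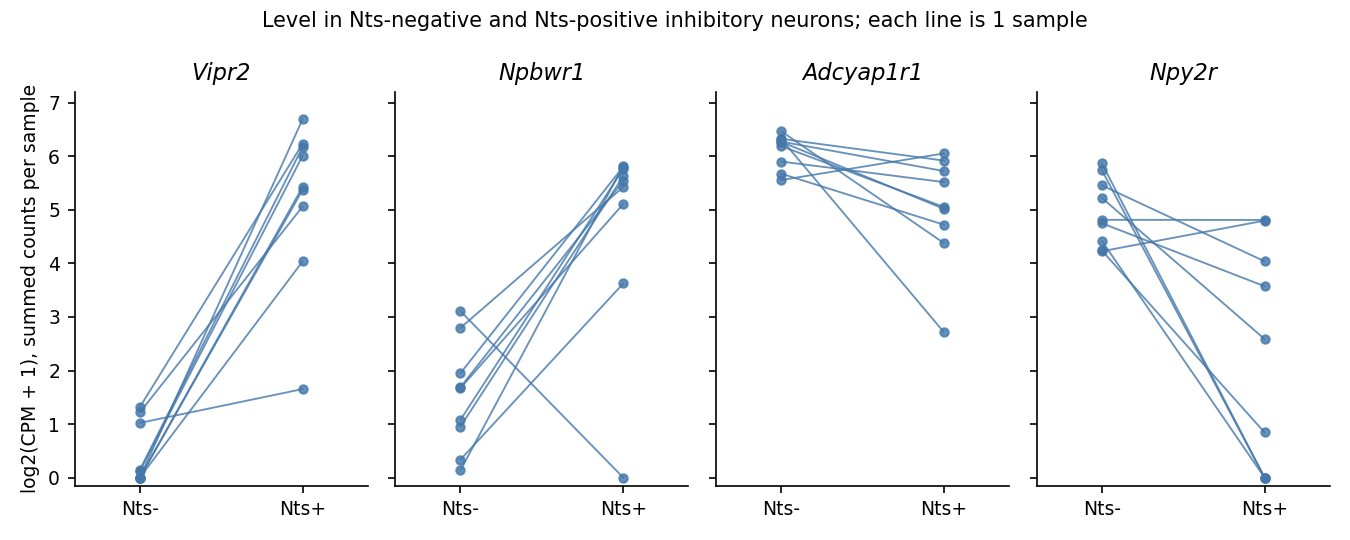
Level of 4 receptor genes in Nts-negative (left) and Nts-positive (right) inhibitory neurons, as log2(CPM + 1) of counts summed per sample; each line joins the 2 classes of 1 of 9 samples. Vipr2 rises along every line and Npbwr1 along 8 of 9, while Adcyap1r1 and Npy2r each fall along 8 of 9.

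Adcyap1r1 was positive in fewer Sst-positive and Nts-positive cells. It was positive in 16 of 115 Nts-positive cells against 173 of 695 Nts-negative cells, and in 17 of 148 Sst-positive cells against 172 of 662 Sst-negative cells. By sample its share in Sst-positive cells was 0% at the lowest, 11.8% at the median and 28.6% at the highest, against 17.1%, 26.5% and 32.9% in Sst-negative cells. The ranges overlapped, and it was lower in 7 of 9 samples (mean 11.7% ± 9.13 against 26.1% ± 4.73, exact p = 0.0156). Within animal numbers 1, 2 and 3 its share was 13.8%, 14.0% and 5% in Sst-positive cells against 27.6%, 24.9% and 25.6%. In level the difference did not pass by edgeR (log2 -1.37 ± 0.43, adjusted p = 0.0957), but it did by DESeq2 (-1.38, adjusted p = 0.00344). For Nts the share was 14.0% ± 12.1 against 24.9% ± 3.86 (exact p = 0.0469) and the log2 difference -1.03 ± 0.36 (adjusted p = 0.191, edgeR). The Nts difference was not seen outside Sst-positive cells: Adcyap1r1 was positive in 2 of 65 cells with both Nts and Sst, 14 of 50 with Nts alone and 158 of 612 with neither. With Sst-positive cells left out, an alternative chosen after seeing the data, the share difference turned to 4.91 percentage points (exact p = 0.656). Among the 83 Sst-positive cells without Nts, Adcyap1r1 was positive in 15 (18.1%), against 25.8% of cells with neither. With Nts-positive cells left out, also chosen after seeing the data, its log2 difference for Sst was -0.84 (adjusted p = 0.479, edgeR, 6 samples). On either side of Prkcd its share was 23.6% ± 5.06 and 23.5% ± 4.81, a difference of 0.106 ± 6.81 percentage points (exact p = 0.984). For Isl1 and Nr2f2 the exact p of its share was 0.707 and 0.363.

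Vipr1, another VIP and PACAP receptor, did not share the pattern of Vipr2. It was positive in 3 of 115 Nts-positive cells and 6 of 148 Sst-positive cells, with log2 differences of -0.45 ± 1.28 and 0.89 ± 1.33 (adjusted p = 0.9 and 0.795, edgeR). It was lower in Nr2f2-positive cells: 0 of 116 were positive, where the floor of 3 cells would be 2.59%, and 2 had a count where 7.02 would at an equal share. Its level there was 0 CPM in the lowest and median samples and 2.61 in the highest, against 2.02, 4.70 and 6.97. The log2 difference was -4.54 ± 1.03 (adjusted p = 0.0412, edgeR), but the call was lost without any 1 of the 8 samples whose removal left it testable (adjusted p 0.0553 to 0.0956). Vipr1 entered this test through the Nr2f2-negative cells, since 7 of the 9 Nr2f2-positive samples were at 0, and its p-value is not taken as support. Since 1.86 positive cells would stand in the class at an equal share, the 0 observed is not read as a difference in share.

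Npy2r was lower in Prkcd-positive cells, where 24 of 343 were positive against 60 of 467. Its level was 8.66 CPM at the lowest, 17.0 at the median and 36.1 at the highest sample, against 18.0, 27.6 and 65.7, so the ranges overlapped, and it was lower in 8 of 9 samples. The log2 difference was -0.997 ± 0.28 (adjusted p = 0.0262, edgeR; -1.04 and 0.0385 without sample 5), and the adjusted p was 0.0501, 0.0529 and 0.0625 without samples 2, 7 and 9. The call was also lost on sums per animal number (-1.04, 0.0618) and without Mbp-positive cells (-0.73, 0.171), and with Prkcd called at 1 count the difference turned (log2 0.0053, adjusted p = 0.995). The share was 6.89% ± 4.87 against 12.9% ± 5.41 (exact p = 0.0195). The direction differed between animal numbers: for number 2 the pooled share was 11.8% in Prkcd-positive and 10.5% in Prkcd-negative cells, while for 1 and 3 it was 4.72% against 14.5% and 4.24% against 13.4%. Npy2r was also sparse in Nts-positive cells, at 5 of 115 against 79 of 695 (3.82% ± 4.61 against 11.2% ± 4.85, exact p = 0.0234), with a log2 difference of -2.72 ± 0.97 (adjusted p = 0.197, edgeR). It was positive in 1 of 65 cells with both Nts and Sst and 4 of 50 with Nts alone, and with Sst-positive cells left out the share difference turned to 0.837 percentage points (exact p = 0.875).

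Npy1r, which many neurons carry on the cell body, was positive in 6 of 343 Prkcd-positive against 23 of 467 Prkcd-negative cells (1.61% ± 2.19 against 4.95% ± 2.42, exact p = 0.0117; log2 -1.64 ± 0.62, adjusted p = 0.0929, edgeR). In Nr2f2-positive cells it was positive in 0 of 116, where 4.15 would stand at an equal share, against 29 of 694, with a log2 difference of -4.05 ± 1.16 (adjusted p = 0.109, edgeR). In Nts-positive cells its log2 difference was 0.93 ± 0.79 (adjusted p = 0.63, edgeR), unlike that of Npy2r in sign, and the difference between these 2 genes was not tested. Npy5r was too sparse for a test in 4 of the 5 splits: 6 neurons in 5 samples were positive, 0 of them Prkcd-positive or Sst-positive, and 4 of the 6 were positive for none of the 5 class genes.

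Grpr was found in few neurons, and those were mostly outside the Prkcd, Sst, Nts and Isl1 classes. Of 12 Grpr-positive cells 6 were Nr2f2-positive, where 1.72 would stand at an equal share, and 1 was Prkcd-positive where 5.08 would. By edgeR Grpr was lower in Prkcd-positive (log2 -5.52 ± 1.54, adjusted p = 0.0237), Sst-positive (-5.91 ± 1.32, 0.0206), Nts-positive (-5.79 ± 1.37, 0.0404) and Isl1-positive cells (-6.27 ± 0.93, 0.0015). These fits rest on very few cells. For Sst, Nts and Isl1 the class-gene-positive cells were at 0 in 8 of 9 samples, and for Prkcd in 6 of 9. Grpr therefore entered these tests through the class-gene-negative cells. Their p-values describe the differences and are not taken as support. At least 1 count was seen in 3 Prkcd-positive cells where 10.2 would stand at an equal share, in 1 Sst-positive cell against 4.39, in 1 Nts-positive cell against 3.41 and in 1 Isl1-positive cell against 2.25. The fitted sizes exceed the raw ones: mean levels were 1.10 against 7.85 CPM for Prkcd, 1.94 against 5.60 for Sst and 3.09 against 5.47 for Nts. Only the Isl1 ranges did not overlap, at 0 to 0.499 CPM against 2.15 to 8.55, with 1 count in all 76 Isl1-positive cells. The ratio of pooled levels was 77.6, with a counting interval of 13.9 to 3069. That interval treats counts as independent, while the 536 counts in Isl1-negative cells lay in 23 cells. It is therefore too narrow, and the size of the difference is not read from it. Leaving out samples in turn, the Isl1 call held without each of the 9, the Sst call without 4, the Prkcd call without 2 and the Nts call without 0. Without sample 5 the adjusted p was 0.051 for Prkcd, 0.0507 for Sst and 0.0913 for Nts. Without the sample block the log2 difference shrank to -2.83 for Prkcd (adjusted p = 0.0699), -1.47 for Sst (0.627) and -0.85 for Nts (0.865), and stayed at -6.00 for Isl1 (7.5e-05). With the class gene called at 1 count it was 1.15, -0.29, -1.19 and -4.37, and no call was left (lowest adjusted p 0.0595, for Isl1). On sums per animal number no Grpr call was left either (lowest 0.141, for Isl1). In Nr2f2-positive cells the log2 difference was 1.13 ± 1.37 (adjusted p = 0.761, edgeR) and the share 4.66% ± 4.68 against 0.849% ± 0.644 (exact p = 0.0625).

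Galr1 was positive in 6 neurons from 4 samples, 3 of them Nts-positive and 3 Sst-positive, and it was not testable in level in any split. Its exact p for the share was at least 0.125 in all 5 splits.

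Inside the Nts class the receptors divided by further peptide genes. This division was chosen after the values were seen and carries no test. Of 23 Vipr2-positive cells 22 were positive for Nts, 22 for Pdyn (dynorphin), 21 for Tac2 (neurokinin B), 20 for Sst and 20 for Crh (corticotropin-releasing hormone), where an equal share would give 3.27, 4.77, 3.12, 4.20 and 2.39. Of 26 Npbwr1-positive cells 20 were Nts-positive, 18 Crh-positive, 18 Pdyn-positive and 17 Tac2-positive. In the 45 neurons positive for Nts, Crh and Tac2 together, Vipr2 was positive in 19 (42.2%, exact 95% interval 27.7% to 57.8%) and Npbwr1 in 17 (37.8%, 23.8% to 53.5%). Adcyap1r1 was positive in 0 of these 45 and Npy2r in 0, each with an upper bound of 7.87%. In the 70 other Nts-positive neurons the 4 genes were positive in 3, 3, 16 and 5 cells: Vipr2 at 4.29% (0.893% to 12.0%), Npbwr1 at 4.29% (0.893% to 12.0%), Adcyap1r1 at 22.9% (13.7% to 34.4%) and Npy2r at 7.14% (2.36% to 15.9%). Median counts were 133325 in the first set and 147353 in the second, and the part of depth in this division was not tested. In the 197 neurons positive for none of the 5 class genes Adcyap1r1 was at 27.9% (21.8% to 34.7%) and Vipr2 at 0 of 197. Intervals cover counting error only. Over all neurons Prkcd was near its equal share among Vipr2-positive cells, at 12 of 23 where 9.74 would stand. Within the Nts class the counts differed, without a test: in the 28 neurons positive for Nts and Prkcd, Vipr2 was positive in 11 and Npbwr1 in 12, against 11 and 8 of the 87 Nts-positive cells without Prkcd, with median counts of 162826 and 137505.

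**Figure D4:**
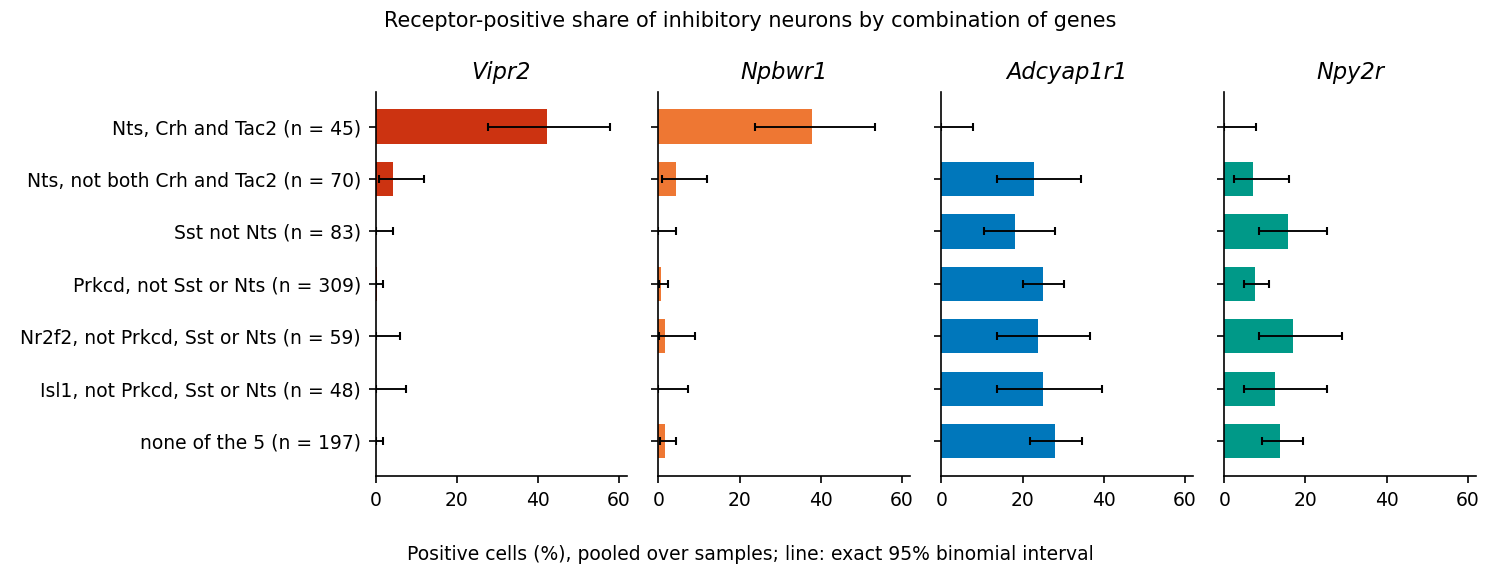
Share of positive neurons (x axis, percent) for 4 receptor genes in sets of inhibitory neurons defined by combinations of genes, pooled over samples; bars start at 0 and lines are exact 95% binomial intervals. In the set positive for Nts, Crh and Tac2, Vipr2 reaches 42.2% and Npbwr1 37.8% while Adcyap1r1 and Npy2r are at 0.

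Vipr2 and Npbwr1 were found in the same set of cells. Of their 23 and 26 positive neurons 7 were shared, which is 30.4% of the Vipr2 set and 26.9% of the Npbwr1 set, from 5 samples; independence over all neurons would give 0.738, within Nts-positive cells 3.83, and within the 45 cells positive for Nts, Crh and Tac2, which held all 7, 7.18. The overlap was thus no larger than the shares in that set give. Vipr2 and Adcyap1r1 shared 1 positive neuron where 5.37 would be met, and Vipr2 and Npy2r shared 0 where 2.39 would. At a threshold of 1 count, 9 neurons held both Npy1r and Npy5r (11.5% of Npy1r cells and 39.1% of Npy5r cells) against 2.21. Adcyap1r1 and Npy2r shared 22 positive neurons, against 19.6. These counts pool cells of unequal depth and carry no test.

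The genes most like Vipr2 over inhibitory neurons were Nts, Car8 (a carbonic anhydrase relative) and Spink8 (a serine protease inhibitor relative), with a mean within-sample Pearson r of log2(counts per 10000 + 1) of 0.56, 0.50 and 0.43 over 9 samples, among 8085 genes positive in at least 5% of neurons. Of 23 Vipr2-positive cells 13 were Car8-positive and 22 Spink8-positive. No gene met the rule for the other 8 members (a mean of at least 0.3 and above 0 in each sample); the gene with the highest mean for Npbwr1 was Expi, at 0.44, as it was for Vipr2, at 0.61, but it lay below 0 in 1 sample for each.

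The peptides that bind these receptors were scarce among the same neurons. Of 14 listed ligands and relatives 7 were read; Vip, Pyy, Ppy, Npw, Galp, Spx and Sct were not used here. Positive neurons numbered 48 for Nmb (neuromedin B), 42 for Ghrh (growth hormone-releasing hormone, a relative of VIP), 12 for Npy, 9 for Gal, 2 for Adcyap1 (PACAP), and 0 for Grp and Npb, whose counts appeared in 1 and 3 neurons. Nmb rose in Nts-positive cells (log2 2.50 ± 0.49, adjusted p = 0.0137, edgeR), the class in which Vipr2 and Npbwr1 rose, and in Prkcd-positive cells (2.19 ± 0.52, 0.00901). Ghrh rose in Prkcd-positive cells (2.33 ± 0.52, 0.00649) and fell in Nts-positive (-5.54 ± 1.28, 0.0355) and Isl1-positive cells (-5.93 ± 1.17, 0.00973). Npy fell in Prkcd-positive (-6.94 ± 0.58, 8.28e-06) and Nr2f2-positive cells (-5.39 ± 0.83, 0.00644), lower in 7 of 9 samples in each. Among 140 neurons with an Npy count 12 were positive. Where they fell, Ghrh was positive in 0.87% of Nts-positive and 0% of Isl1-positive cells, and Npy in 0% of both classes. The p-values of these falls describe the differences and are not taken as support. Of 12 Npy-positive neurons 0 were positive for Npy1r, 2 for Npy2r and 0 for Npy5r. Of 9 Gal-positive neurons 1 was Galr1-positive, and of 48 Nmb-positive neurons 0 were Grpr-positive. Of 9 further receptors of these families 4 were read: Brs3, a bombesin-family receptor, was positive in 6 neurons, and Nmbr, Galr2 and Ppyr1 in 0; none was testable.

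Downstream of the receptors, Gnas, the stimulatory G protein alpha subunit through which VIP and PACAP receptors act, rose in Nts-positive (log2 1.32 ± 0.10, adjusted p = 8.99e-06, edgeR), Sst-positive (1.37 ± 0.07, 2.55e-08) and Isl1-positive cells (0.99 ± 0.15, 0.00137), and fell in Prkcd-positive (-1.60 ± 0.09, 7.21e-08) and Nr2f2-positive cells (-0.997 ± 0.17, 0.00942). Gnai1, an inhibitory alpha subunit, rose in Nts-positive (0.96 ± 0.13, 0.00162) and Sst-positive cells (0.67 ± 0.14, 0.0169) and fell in Prkcd-positive (-0.52 ± 0.14, 0.0195) and Nr2f2-positive cells (-0.82 ± 0.19, 0.0396). Of 10 alpha subunit genes 9 were tested. In Nts-positive cells 2 rose and 0 fell, against 1.02% and 1.26% of all genes tested, with a list median of 0.09 against -0.22 for all genes. Of 18 receptor regulators (kinases, arrestins, RAMPs and RGS proteins) 6 rose and 4 fell in Prkcd-positive cells, against 7.6% and 9.74% of all genes tested. The list median there was -0.0186, near the -0.0202 of all genes. The smallest adjusted p-values were those of Rgs4 (1.24 ± 0.07, 9.54e-08), Rgs14 (1.23 ± 0.12, 8.53e-06), Ramp3, a protein that partners peptide receptors (2.09 ± 0.24, 4.35e-05), and Gprasp1 (-0.32 ± 0.05, 0.000329). Of 8 GIRK channel and phospholipase C beta genes 5 were tested; Kcnj3 fell in Prkcd-positive cells (-0.54 ± 0.16, 0.0356) and Plcb1 in Isl1-positive cells (-0.65 ± 0.10, 0.00262).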

How the data were processed

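The authors deposited whole-number counts per gene symbol and cell, and a table of cell names that end in the sample title and hold an animal number and a date field. The build NCBIM37 and the tool Seurat are named, per the submitters' processing notes; for the aligner, annotation, strand and whether a count is a read or a molecule, nothing is given in the sources used here. Spike-in rows (91) were dropped. The 9 samples had 8522750 to 22730327 gene counts; 9 inhibitory neurons had under 20000. The members and lists were chosen with earlier results of these data known. Cells are not replicates: counts were summed per sample and class (at least 5 cells each) and tested with edgeR 4.0.16 (R 4.3.3; quasi-likelihood, TMM, filterByExpr, sample block, Benjamini-Hochberg over all genes; threshold 0.05). CPM are these sums scaled by edgeR's standard CPM factor. DESeq2 1.42.0, other scaling and filters, no block, other cut-offs, thinning, equal cell numbers, summing by the animal number or by the date field, and omitting single samples or sets of cells were alternatives. Both classes of a split come from the same samples, so the sample is the pair. The labels do not say that samples sharing an animal number are separate animals, so p-values measure the spread between samples, which may be technical. Floors are 3 counts or cells; intervals are exact (Clopper-Pearson, 95%). No doublet caller was run. Genes were named by rule: the 9 members, each detected ligand, up to 4 genes per list by smallest adjusted p, and up to 3 most similar genes. On simulated counts with 100 genes changed at each size, the level test for the Nts split recovered 25% of 2-fold and 58% of 4-fold changes among 11251 genes, with 3 false calls; for Nr2f2 it recovered 20% and 63% among 11008 genes. At unadjusted p under 0.05 the share test for Nts recovered 80% of genes at 3-fold odds and 99% at 9-fold odds among 9899, and called 6.03% of unchanged genes. A marker gene of the lists is not reported here, and its list was summed without it.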

Additional observations from a re-analysis of the deposited data

Results flagged for a closer look

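In 36 groups of 9 samples, the gap from the highest or lowest sample to its neighbour was compared with the limit for a single outlying sample. The groups were the share and the level of each member over all inhibitory neurons. Added to these was the level of each member called by edgeR, on either side of the class gene concerned. About 1 group in 20 passes by chance, and 4 passed. For Grpr the highest sample stood at 17.4 CPM in Sst-positive cells, 27.8 CPM in Nts-positive cells and 0.499 CPM in Isl1-positive cells, with the other 8 samples at 0 in each. For Vipr1 in Nr2f2-positive cells the highest sample was at 2.61 CPM and the next at 1.02. Each of these 4 highest levels rests on 1 cell.

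The 19 cells not classed as inhibitory neurons entered no comparison, and their median of 53113 gene counts was below the 126576 of the inhibitory neurons. Member counts above the detection limit of 3 were found there for Adcyap1r1 (38 counts in 1 cell), Npy2r (25 counts in 4 cells), Npy1r (8 counts in 1 cell) and Npy5r (5 counts in 1 cell).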

How the results depend on the processing

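The number of members passing in level moved with several choices; the cause was not tested. With 2 passing for Prkcd, the count was 4 by DESeq2, 4 with no filter on low counts, 1 without the replicate block (the sample), 0 with the class gene called at 1 count, 1 on thinned counts, 0 on sums per animal number, 1 on sums per date field and 0 without Mbp-positive cells, and 0 to 2 leaving out a sample. With 2 for Sst, it was 4 by DESeq2, 0 with the class gene at 1 count, 1 on thinned counts, 0 with equal cell numbers, 1 per animal number, 1 per date field, 0 without Mbp-positive cells and 0 without Nts-positive cells, and 1 to 3 leaving out a sample. With 3 for Nts, it was 5 by DESeq2, 1 with the class gene at 1 count, 1 with equal cell numbers, 0 without Mbp-positive cells and 0 without Sst-positive cells, and 1 to 2 leaving out a sample. With 1 for Isl1, it was 3 by DESeq2 and 0 with the class gene at 1 count or 3 per 10000, on thinned counts, with equal cell numbers, per animal number, per date field and without Mbp-positive cells, and 1 to 2 leaving out a sample. With 1 for Nr2f2, it was 3 by DESeq2 and 0 with the class gene at 3 per 10000, on thinned counts, with equal cell numbers, per animal number, per date field and without Mbp-positive cells, and 0 leaving out any sample. In the Nts split without Mbp-positive or without Sst-positive cells, Vipr2 was left untested by the filter. Leaving out Nts-positive or Sst-positive cells was chosen after seeing the data. The direction turned for Npy2r and Grpr in the Prkcd split with Prkcd called at 1 count (log2 0.0053 and 1.15), and, in percentage points of positive cells, for Npy2r there (0.109), for Vipr2 with Prkcd at 3 per 10000 (-2.92), for Vipr2 (-0.278) and Npbwr1 (-0.94) in the Sst split without Nts-positive cells, and for Adcyap1r1 (4.91) and Npy2r (0.837) in the Nts split without Sst-positive cells. The number passing in share after adjustment was 0 under each alternative run. Of 738 log2 differences recomputed 577 kept their direction and side of the threshold, as did 648 of 828 share differences. Rare members limit precision: Npy5r and Galr1 rest on 6 positive cells each.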
